A study of Mus musculus with 18 samples.

Results

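The 53 genes described here build and run mitosis, and their messenger RNA was followed in 3T3-L1, a mouse embryo fibroblast line that can be made to form fat cells. They were taken by name from each library's table of 25209 gene names, where all 53 were found. Polyadenylated RNA was sequenced in 18 libraries, 3 each of Control, MCE1, MCE2, Day4, Day6 and Day8, where MCE stands for mitotic clonal expansion, a short burst of division that precedes differentiation. All groups share the same line and serum-containing medium. Cells were induced 2 days after confluence, per the labels' protocols, with 10 µg/mL insulin, 0.25 µM dexamethasone (a glucocorticoid) and 0.5 mM IBMX (an inhibitor of cAMP breakdown) for 48 h. They were then kept in 5 µg/mL insulin, renewed every 2 days. At what hour MCE1 and MCE2 were taken, and whether the Control cells were still dividing, is not in the labels. Nothing says that replicates came from separate cultures, so p-values cover only the spread among these libraries, which may be technical.

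Each value is a gene's TPM (transcript abundance scaled by the authors to gene length and to a fixed library total). The read depth behind it is unknown. Fold changes are differences of log2(TPM + 1), so that the change of a gene near 0 TPM is understated. Calls were made in limma where the adjusted p was under 0.05, with Benjamini-Hochberg adjustment over 12695 genes that reached 1 TPM in at least 3 libraries. Of the 53 genes, 52 passed this filter. Kif2c, a microtubule depolymerase, did not, with 0 to 0.622 TPM in the 18 libraries. Why its listed values were so low beside most of the other genes was not tested, so they are not read as absence. Pearson's r between libraries, across genes, was 0.976 to 0.991 within a group and 0.811 to 0.976 across groups. The 6 fibroblast markers examined (Pdgfra, Pdgfrb, Thy1, Col1a1, Dlk1 and Vim) were detected in every group and summed to 3938 to 7252 TPM per library, with Dlk1 listed at 0 in at least 1 Day4 library. The 6 fat cell markers (Adipoq, Plin1, Fabp4, Lpl, Cebpa and Cidec) summed to 128 to 140 TPM in Control, where Adipoq and Plin1 stood at 0, and to 643 to 719 TPM at MCE1. Their sums were 3414 to 3739 TPM at MCE2, 17593 to 18490 TPM at Day4, 29477 to 31381 TPM at Day6 and 25400 to 28137 TPM at Day8. Of 5 macrophage genes Adgre1 and Ptprc were at 0 in all 18 libraries and the sum was at most 7.74 TPM, and 3 endothelial genes summed to at most 1.05 TPM. The part of any of these levels in the results below was not tested. In RNA from whole cultures, fewer dividing cells and less RNA per dividing cell cannot be told apart.

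Entry into mitosis is driven by the kinase Cdk1 bound to A and B cyclins. Condensins and topoisomerase II shape the chromosomes, microtubules attach to kinetochores, and the spindle checkpoint holds back the anaphase-promoting complex until every kinetochore is attached. Chromatids then part and a contractile ring splits the cell. Many of these genes are transcribed together late in the cell cycle, and in resting cells they are held down by the DREAM complex, which binds a promoter element called the cell cycle genes homology region (CHR), while the factor NF-Y binds CCAAT boxes nearby.

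These promoter elements were looked for because the genes moved together in the results that follow. RefSeq promoter windows of build GRCm38.p6, running from 250 bases before to 50 bases after the transcript start, were available for 44 of the 53 genes. Ccna2, Cdc25c, Foxm1, Aurkb, Incenp, Spc24, Tpx2, Smc4 and Kif20a were not among them. The CHR was searched as TTTGAA and the CCAAT box as CCAAT on both strands. Of 45 TTTGAA matches in these windows 1 overlapped a CCAAT match. TTTGAA was found in 32 of the 44 genes (72.7%), against 20.2% of all 27025 genes with a window and 13.9% of the 9801 tested genes with one. CCAAT was found in 33 of 44 (75.0%), against 41.1% of all genes and 43.4% of tested genes. A window with both was found in 28 of 44 (63.6%), against 8.0% of all genes and 6.0% of tested genes. Within 100 bases before to 50 bases after the start, TTTGAA was found in 29 of the 44 genes (65.9%), against 9.2% of all genes. Birc5, Mad2l1, Pttg1, Nuf2, Kif18a, Nusap1 and Ncaph held neither set of letters in this window.

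**Figure D1:**
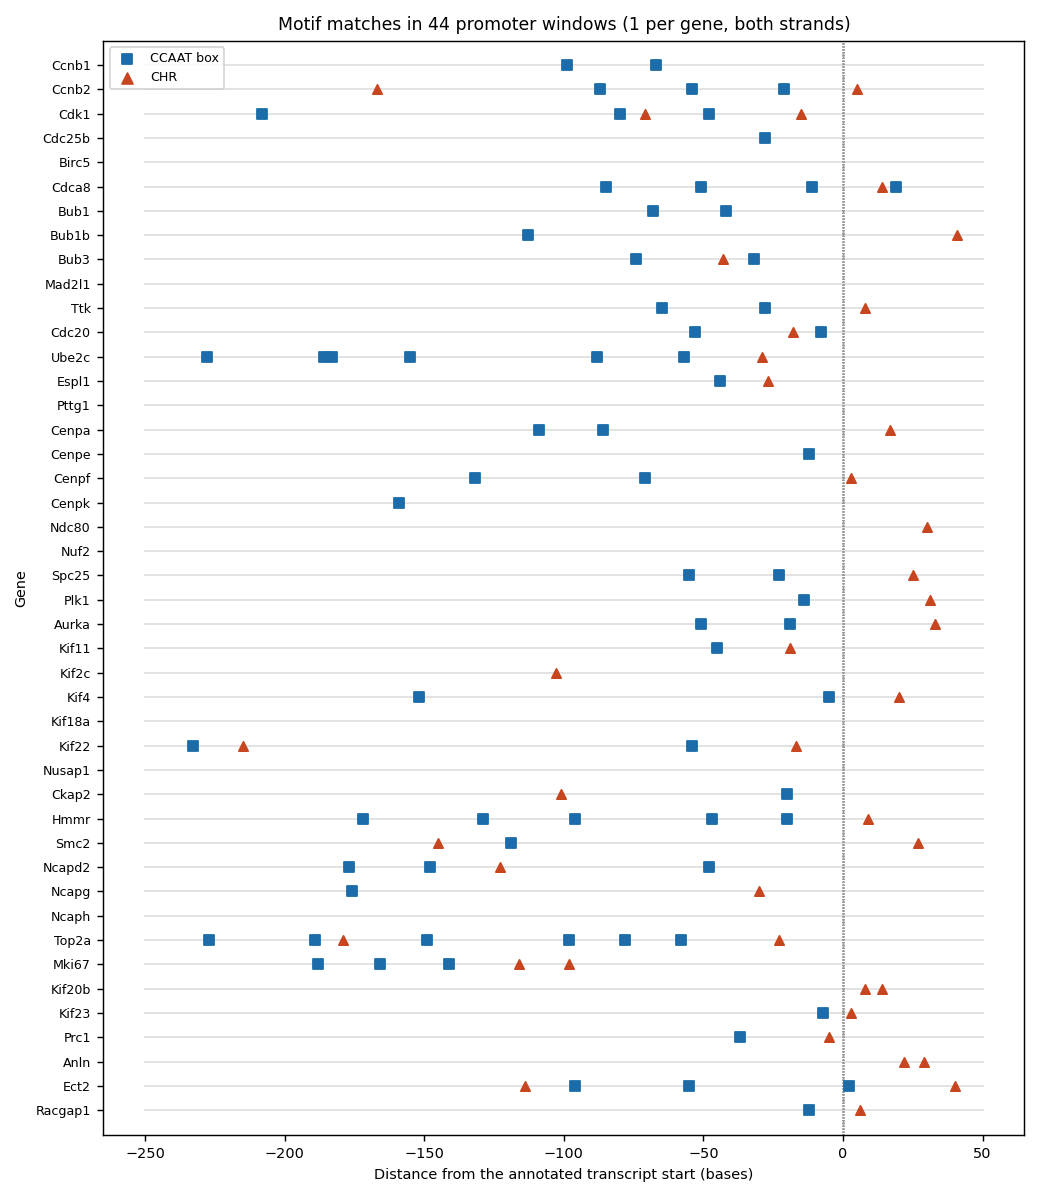
Positions of CCAAT (squares) and TTTGAA (CHR, triangles) on either strand in the promoter windows of 44 mitosis genes (rows, 1 window per gene), in bases from the annotated transcript start. The matches gather from about 100 bases before the start onwards, and 28 genes have both.

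Among these genes are a gene of mitotic entry with both elements (Cdk1) and a cyclin gene with CCAAT but no TTTGAA (Ccnb1). An activator and an enzyme of the anaphase-promoting complex (Cdc20 and Ube2c) and a spindle motor (Kif11) are others. Top2a had the highest rise at MCE1, and Bub3 kept the highest share of its Control level. The stretches upstream of these 7 genes are shown because they carry the main patterns of the values below. Each is 110 bases long and is written 5′ to 3′ on the gene's strand, with matches to TTTGAA or its reverse complement TTCAAA and to CCAAT or its reverse complement ATTGG in capitals. The RefSeq positions in GRCm38.p6 are chr10:69352913-69353022 (minus strand) for Cdk1, chr13:100786487-100786596 (minus strand) for Ccnb1, chr4:118437344-118437453 (minus strand) for Cdc20, chr2:164769819-164769928 (plus strand) for Ube2c, chr19:37376272-37376381 (plus strand) for Kif11, chr11:99024200-99024309 (minus strand) for Top2a and chr7:131560257-131560366 (plus strand) for Bub3.
Cdk1: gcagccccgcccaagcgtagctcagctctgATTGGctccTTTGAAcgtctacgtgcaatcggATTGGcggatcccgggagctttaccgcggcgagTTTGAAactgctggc
Ccnb1: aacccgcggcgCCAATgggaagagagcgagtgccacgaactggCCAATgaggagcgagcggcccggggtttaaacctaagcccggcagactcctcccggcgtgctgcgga
Cdc20: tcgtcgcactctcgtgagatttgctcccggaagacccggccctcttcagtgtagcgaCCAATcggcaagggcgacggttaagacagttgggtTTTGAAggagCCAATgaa
Ube2c: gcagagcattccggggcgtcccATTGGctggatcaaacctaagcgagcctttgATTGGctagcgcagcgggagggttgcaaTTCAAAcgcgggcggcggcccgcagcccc
Kif11: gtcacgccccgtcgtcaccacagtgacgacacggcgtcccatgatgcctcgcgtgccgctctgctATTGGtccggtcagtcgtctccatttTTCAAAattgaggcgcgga
Top2a: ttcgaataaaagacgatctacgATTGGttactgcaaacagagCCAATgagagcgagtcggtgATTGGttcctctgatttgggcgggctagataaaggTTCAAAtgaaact
Bub3: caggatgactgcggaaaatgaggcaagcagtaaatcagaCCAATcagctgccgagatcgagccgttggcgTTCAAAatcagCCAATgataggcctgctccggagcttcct
In these stretches Ccnb1 shows a pair of CCAAT boxes and no TTTGAA, while the others show at least 1 of each. The genes with and without TTTGAA had close median changes. At MCE1 over Control the medians were 0.27 for 31 tested genes with it and 0.23 for 12 without it, and at Day8 over Control -3.01 and -2.79. These are descriptions of letters in a window and say nothing of which factor was bound.

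Across the course, the summed level of 51 mitosis genes (all but Kif2c and Kif20a) was highest at MCE1. It lay below Control from MCE2 on and was lowest at Day8. It was 4759 to 4977 TPM in the Control libraries and 6017 to 6295 TPM at MCE1. The sum was 2061 to 2305 TPM at MCE2, 824 to 841 TPM at Day4, 978 to 992 TPM at Day6 and 652 to 672 TPM at Day8, so the ranges of no pair of groups overlapped. As a share of all listed TPM, these 51 genes took 0.546 to 0.570% in Control, 0.692 to 0.724% at MCE1 and 0.0742 to 0.0764% at Day8. Of the 52 tested genes 51 differed among the 6 groups in limma's F test, which called 87.6% of all genes tested, so a call in this test sets a gene little apart from the rest. Kif20a was the gene not called. Leaving out Kif2c and Kif20a, the highest group mean was at MCE1 for 42 of 51 genes and in Control for Ccnb2, Cdc25b, Foxm1, Mad2l1, Cenpa, Kif18a, Ckap2, Kif23 and Anln. The lowest mean was at Day8 for 44 genes, at Day4 for Cdc25b, Aurkb, Mad2l1, Cenpa, Kif18a and Anln, and at Day6 for Bub1.

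**Figure D2:**
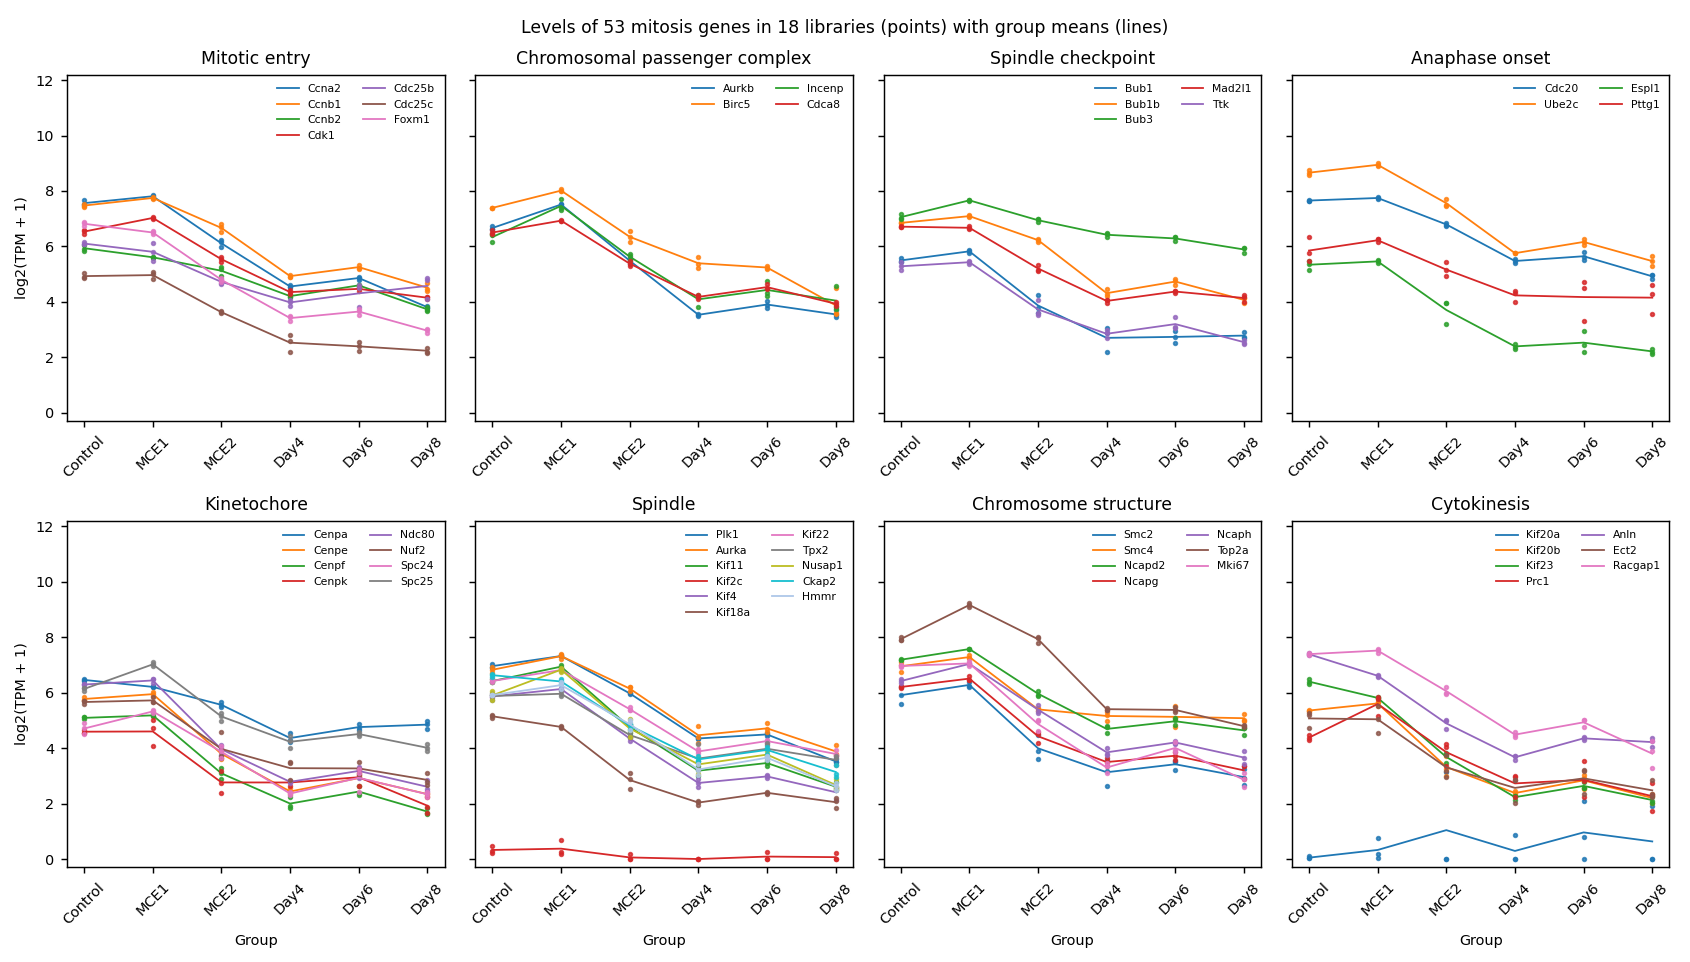
Level of each of the 53 mitosis genes as log2(TPM + 1) in every library (points) with group means (lines), for Control, MCE1, MCE2, Day4, Day6 and Day8 (3 libraries each), in 1 panel per role. Most lines peak at MCE1, drop to Day4, lift slightly at Day6 and end lowest at Day8, while Kif2c and Kif20a stay near the floor.

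MCE1 against Control shows the mitotic genes at the earlier stage of clonal expansion. Of the 52 tested genes 23 rose, 6 fell and 23 were not called, with a median log2 fold change of 0.27 against -0.06 for all genes tested. Among all genes 22.0% were called higher and 29.4% lower, so the called share of the mitosis genes was above the background in the upward direction and below it in the downward one. Median-ratio scaling between libraries gave 27 mitosis genes higher and 4 lower, and quantile normalization 23 and 7. The same scalings changed the split of all genes from 2799 higher and 3727 lower to 3622 and 3052 under median-ratio scaling and to 3380 and 3161 under quantile normalization. The median change was small but the range was wide. The group means at MCE1 stood between 58.1% (Anln) and 244% (Prc1) of the Control mean, with a median of 121% over 51 genes.

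The chromosomal passenger complex corrects faulty attachments and guides cytokinesis. It was the role in which every gene rose at MCE1, 4 of 4 (background 22.0% called higher). Incenp, its scaffold, had 167, 206 and 157 TPM at MCE1, against 84.0, 70.9 and 85.9 TPM in Control (log2 fold change 1.12, SE 0.20, limma adjusted p = 0.000167). Aurkb, its kinase, had 186, 173 and 186 TPM at MCE1, against 106, 98.4 and 97.6 TPM in Control (0.85, SE 0.08, adjusted p = 3.89e-07). For both genes every MCE1 library lay above every Control library. Birc5 (survivin) rose by 0.62 ± 0.18 and Cdca8 (borealin) by 0.43 ± 0.07 (log2 fold change ± SE).

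Among the genes of chromosome structure, Top2a, the topoisomerase that untangles sister chromatids, showed the highest rise of the 52 genes. It lies at mm9 chr11:98854261-98885503 and had 545, 598 and 574 TPM at MCE1, against 254, 235 and 240 TPM in Control (1.23, SE 0.06, adjusted p = 1.14e-10). The lowest MCE1 library was above the highest Control library. The condensin I subunits Ncaph and Ncapd2 rose as well, by 0.62 ± 0.10 and 0.38 ± 0.08. The condensin genes Smc2 (0.37 ± 0.24), Smc4 (0.34 ± 0.15) and Ncapg (0.30 ± 0.13) were not called, nor was Mki67, which codes for the chromosome surface protein Ki-67 (0.09 ± 0.14).

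Of the 10 tested genes of spindle assembly, 7 rose, 1 fell and 2 were not called (background 22.0% higher and 29.4% lower). Nusap1, which bundles microtubules, had 107, 112 and 119 TPM at MCE1, against 52.8, 65.2 and 59.2 TPM in Control (0.93, SE 0.16, adjusted p = 0.000176), with no overlap between the groups. The motor Kif11, which pushes spindle poles apart, rose by 0.52 ± 0.11, and the mitotic kinases Aurka and Plk1 by 0.49 ± 0.14 and 0.37 ± 0.05. Kif22 (0.39 ± 0.07), a motor on chromosome arms, the microtubule-binding Hmmr (0.36 ± 0.11) and the chromosome motor Kif4 (0.27 ± 0.11) completed the risers. Kif4 was just past the threshold (adjusted p = 0.0464) and was lost without any 1 of the 6 libraries, and Hmmr was lost without MCE1 replicate 3 (0.31). Kif18a, which dampens chromosome movements, fell, with 25.5, 26.7 and 26.3 TPM at MCE1 against 35.9, 34.6 and 32.9 TPM in Control (-0.38, SE 0.12, adjusted p = 0.0175). Median-ratio scaling (-0.27) and leaving out Control replicate 1 (-0.35) or MCE1 replicate 1 (-0.37) ended that call. Tpx2 and Ckap2 were not called (0.08 ± 0.19 and -0.23 ± 0.10). Quantile normalization (-0.26) and a fit on the 6 libraries alone (-0.23) called Ckap2 lower.

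Within the NDC80 complex, the microtubule clamp of the kinetochore, Spc24 and Spc25 rose while Ndc80 and Nuf2 did not pass the test. Spc25 had 123, 135 and 129 TPM at MCE1, against 71.2, 71.6 and 65.1 TPM in Control (0.89, SE 0.11, adjusted p = 3.04e-06). Spc24 rose by 0.61 ± 0.17, with 39.4, 40.5 and 37.3 TPM at MCE1 against 28.8, 25.2 and 21.8 TPM in Control. Ndc80 had 81.0, 88.0 and 88.8 TPM at MCE1, against 76.3, 78.4 and 77.5 TPM in Control (0.15 ± 0.12, not called), and Nuf2 had a difference of 0.06 ± 0.22. A fit on the 6 libraries alone called Ndc80 higher (0.15). None of Spc25, Spc24 and Ndc80 had overlapping groups. On the log2(TPM + 1) scale Spc25 stood 0.58 ± 0.04 above Ndc80 at MCE1 and -0.16 ± 0.08 from it in Control (mean difference in level ± SD, n = 3 libraries each). Cenpa, the centromeric histone, fell by 0.25 ± 0.09 on the log2 scale, a call lost under median-ratio scaling (-0.13) and without Control replicates 1 or 2 or MCE1 replicates 1 or 2. Cenpe, Cenpf and Cenpk, which act in chromosome transport and kinetochore assembly, were not called (0.18 ± 0.12, 0.09 ± 0.13 and 0.01 ± 0.23). Median-ratio scaling (0.30) and the fit on the 6 libraries alone (0.18) called Cenpe higher.

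The entry genes split. Cdk1 had 125, 130 and 134 TPM at MCE1, against 96.4, 92.2 and 87.0 TPM in Control (0.49, SE 0.06, adjusted p = 7.49e-06). Ccnb1, coding for cyclin B1, had 208, 215 and 220 TPM at MCE1 against 184, 175 and 172 TPM in Control (0.28, SE 0.08, adjusted p = 0.00727), and Ccna2, coding for cyclin A2, rose by 0.25 ± 0.07. Ccnb2, coding for cyclin B2, went the other way, with 48.5, 46.6 and 48.4 TPM at MCE1 against 56.6, 65.7 and 58.9 TPM in Control (-0.33, SE 0.08, adjusted p = 0.00243). The ranges of the MCE1 and Control libraries did not overlap for any of these genes. The gap between the 2 B cyclins was 2.14 ± 0.06 at MCE1 and 1.54 ± 0.14 in Control (difference in log2 level ± SD, n = 3 each). Foxm1, a transcription factor of late cell cycle genes, also fell, with 92.4, 86.7 and 90.0 TPM at MCE1 against 116, 107 and 113 TPM in Control (-0.32, SE 0.07, adjusted p = 0.00186). The Cdk1-activating phosphatase genes Cdc25b and Cdc25c were not called (-0.30 ± 0.21 and 0.04 ± 0.14).

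Cytokinesis held both the highest relative level and the deepest falls. Prc1, which crosslinks microtubules of the central spindle, had 34.3, 56.5 and 54.2 TPM at MCE1, against 21.2, 19.8 and 18.5 TPM in Control (1.21, SE 0.34, adjusted p = 0.00684). Anln (anillin), a scaffold of the contractile ring, had 94.7, 99.5 and 95.6 TPM at MCE1, against 172, 161 and 166 TPM in Control (-0.78, SE 0.09, adjusted p = 1.81e-06). Kif23, the motor of centralspindlin, had 54.4, 56.1 and 54.9 TPM at MCE1, against 89.0, 78.6 and 82.6 TPM in Control (-0.59, SE 0.10, adjusted p = 0.000192). In all 3 the groups did not overlap, with Prc1 above Control and Anln and Kif23 below it. Racgap1, the partner of Kif23 in centralspindlin, was not called (0.13 ± 0.17), nor were the motor Kif20b (0.26 ± 0.16) and Ect2 (-0.03 ± 0.31), which activates RhoA at the cleavage site. A fit on the 6 libraries alone called Racgap1 (0.13) and Kif20b (0.26) higher. In the spindle checkpoint Bub3 rose, with 204, 201 and 200 TPM at MCE1 against 142, 128 and 127 TPM in Control (0.60, SE 0.06, adjusted p = 3.89e-07), and Bub1b by 0.25 ± 0.07. Bub1, Mad2l1 and Ttk were not called, though the fit on the 6 libraries alone called Bub1 higher (0.33). Of the genes of anaphase onset, Ube2c rose by 0.28 ± 0.09, a call lost without Control replicate 3 (0.24) or MCE1 replicate 3 (0.25). Cdc20, separase (Espl1) and securin (Pttg1) were not called. Median-ratio scaling (0.21) and the fit on the 6 libraries alone (0.09) called Cdc20 higher. The libraries of Pttg1 were spread, with 69.9, 76.2 and 75.3 TPM at MCE1 against 53.3, 79.2 and 43.3 TPM in Control.

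**Figure D3:**
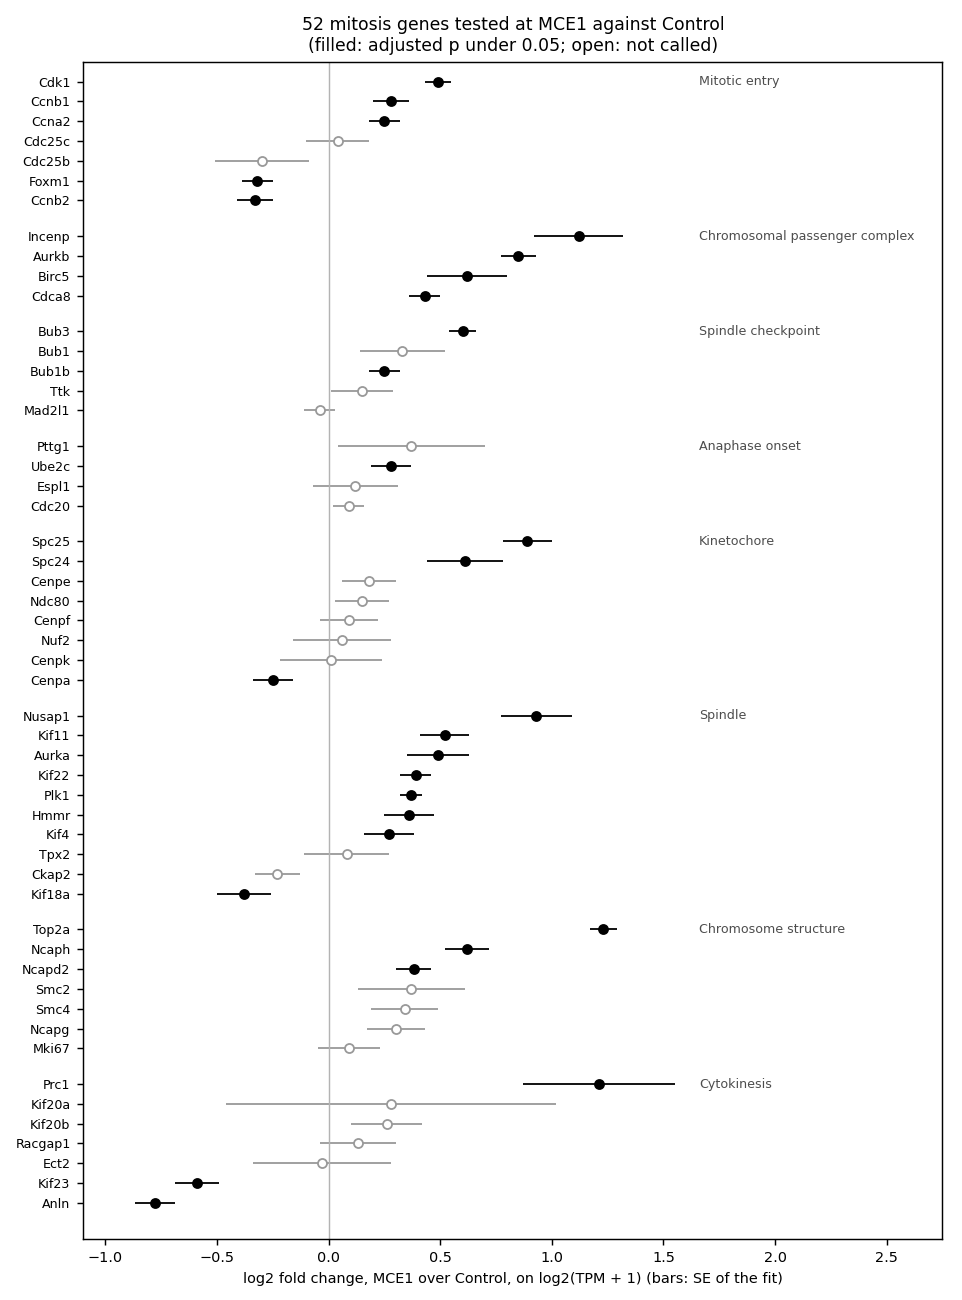
Log2 fold change of each of the 52 tested mitosis genes at MCE1 over Control on log2(TPM + 1), with the SE of the fit as bars, grouped by role (3 libraries per group; filled points passed an adjusted p of 0.05). The 4 passenger complex genes all lie right of 0, from 0.43 to 1.12, and cytokinesis runs from -0.78 (Anln) to 1.21 (Prc1).

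By MCE2, the later stage of clonal expansion, the mitosis genes stood well below both earlier groups. Against MCE1, 51 of 52 genes fell and 0 rose (background 25.2% called lower), with a median log2 fold change of -1.68 against -0.05 for all genes tested. Against Control, 47 fell and 0 rose (background 39.1%), with a median of -1.32 against -0.17 for all genes; both comparisons share the MCE2 libraries. Median-ratio scaling moved the median of all genes in MCE2 over Control to 0.00 and that of the mitosis genes to -1.12, and changed the split of all genes from 2969 higher and 4964 lower to 3939 and 3923 (3829 and 3917 under quantile normalization). The group means at MCE2 had a median of 38.5% of the Control mean over 51 genes.

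The size of the fall at MCE2 differed widely between genes. Kif23 was at 9.96, 12.5 and 13.2 TPM at MCE2, against 89.0, 78.6 and 82.6 TPM in Control, or 14.2% of the Control mean (-2.72, SE 0.10, adjusted p = 2.28e-12). Ndc80, with 12.6, 15.0 and 16.2 TPM at MCE2 against 81.0, 88.0 and 88.8 TPM at MCE1, had the steepest step from MCE1 (-2.49, SE 0.12, adjusted p = 1.86e-10). Neither gene's groups overlapped. Top2a had 221, 256 and 252 TPM at MCE2, against 254, 235 and 240 TPM in Control, and the groups overlapped (0.00 ± 0.06, adjusted p = 0.993). Median-ratio scaling called it higher at MCE2 (0.20, adjusted p = 0.00214), the opposite of every other mitosis gene called. It was lower than at MCE1 by 1.23 on the log2 scale (SE 0.06). Bub3, Prc1 and Pttg1 were also not called against Control (-0.11, -0.52 and -0.69), though each fell from MCE1 (-0.72 ± 0.06, -1.74 ± 0.34 and -1.06 ± 0.33). The call of Pttg1 against MCE1 was lost without MCE2 replicate 2 (-0.94). Against Control, Pttg1 was called lower without Control replicate 3 (-0.88) and in the fit on the 6 libraries alone (-0.69). Bub3 acts outside mitosis too, and it had 125, 125 and 117 TPM at MCE2, just under the 142, 128 and 127 TPM in Control; median-ratio scaling put its difference at 0.08, again not called.

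By role, the median level at MCE2 over 8 kinetochore genes was 28.4% of the Control mean, over 6 cytokinesis genes 25.4%, and over 7 genes of chromosome structure 33.4%. It was 46.8% over the 4 passenger complex genes and 50.7% over the 4 genes of anaphase onset. These medians are descriptions and were not tested against each other. Mki67, a common marker of dividing cells, had 23.4, 31.2 and 30.7 TPM at MCE2, against 132, 139 and 125 TPM at MCE1 (-2.18, SE 0.14, adjusted p = 3.63e-09). The difference in log2 level between Top2a and Mki67 was 3.06 ± 0.11 at MCE2, against 2.11 ± 0.08 at MCE1 and 0.97 ± 0.05 in Control (± SD, n = 3 each). Top2a thus stood at 100% of its Control mean at MCE2 and Mki67 at 23.0%.

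Day4, Day6 and Day8 were each compared with the same 3 Control libraries, so their calls are not independent of each other. In each, 51 of 52 genes fell and 0 rose, Kif20a being the gene not called, where 39.3% (Day4), 39.4% (Day6) and 39.7% (Day8) of all genes were called lower. The median log2 fold changes were -2.53, -2.24 and -2.88 in Day4, Day6 and Day8 over Control, against -0.11, -0.12 and -0.11 for all genes. At Day8 the median group mean was 12.3% of Control over 51 genes.

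Kif23 was lowest in relative terms. It had 3.84, 3.24 and 3.06 TPM at Day8, against 89.0, 78.6 and 82.6 TPM in Control, 4.05% of the Control mean (-4.27, SE 0.10, adjusted p = 5.06e-15). Mki67 had 5.01, 7.60 and 6.39 TPM at Day8, against 124, 121 and 126 TPM in Control (-4.10, SE 0.14, adjusted p = 2.15e-13). Foxm1 had 7.06, 6.99 and 6.36 TPM at Day8, against 116, 107 and 113 TPM in Control (-3.86, SE 0.07, adjusted p = 2.98e-16). All Day8 libraries of these genes lay far under the lowest Control library. Cdk1 (-2.38 ± 0.06), Ccnb1 (-2.96 ± 0.08), Ccna2 (-3.76 ± 0.07), Aurkb (-3.12 ± 0.08), Plk1 (-3.44 ± 0.05) and Kif11 (-3.81 ± 0.11) fell too (log2 fold change ± SE).

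The highest shares of the Control mean at Day8 were those of Bub3, Cdc25b, Cenpa, Pttg1 and Smc4. Bub3 had 53.9, 60.9 and 60.5 TPM at Day8, against 142, 128 and 127 TPM in Control, which is 44.1% of the Control mean and the highest share of the 51 genes (-1.17, SE 0.06, adjusted p = 4.54e-11). Cdc25b, with 26.5, 16.1 and 28.0 TPM at Day8 against 66.3, 70.5 and 66.7 TPM in Control, stood at 34.7% (-1.53, SE 0.21). Cenpa had 30.3, 28.4 and 24.9 TPM at Day8, against 89.3, 86.6 and 85.1 TPM in Control, or 32.1% (-1.61, SE 0.09). Pttg1 followed with 30.0% and Smc4, a subunit of both condensins, with 26.7% of Control. None of these genes overlapped with Control. By role, the median share at Day8 was lowest for the 10 spindle genes, at 8.96% of Control, and ran to 13.9% for the 5 checkpoint genes.

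The ratio of related genes was followed in 5 pairs, of partners within a complex (Spc25 with Ndc80, Spc24 with Nuf2, Racgap1 with Kif23) and of relatives that act apart or in place of each other (Ccnb1 with Ccnb2, Aurkb with Aurka). Spc25 stood 1.18 ± 0.13 above Ndc80 at MCE2, and 1.33 to 1.44 above it at Day4, Day6 and Day8 (means of the difference in log2 level; SDs 0.13 to 0.33, n = 3 each), against -0.16 ± 0.08 in Control. All 3 Control libraries had less Spc25 than Ndc80, and all 15 later libraries had more. Spc24 relative to Nuf2, of the same complex, stood at -0.40 ± 0.08 at MCE1, -0.11 ± 0.37 at MCE2 and -0.91 ± 0.31 at Day4, against -0.95 ± 0.20 in Control, and its Day4, Day6 and Day8 libraries overlapped with those of Control. Racgap1 stood 1.71 ± 0.07 above Kif23 at MCE1 and 2.38 ± 0.17 at MCE2, against 0.99 ± 0.13 in Control. The gap was 2.25 ± 0.16 at Day4, 2.29 ± 0.14 at Day6 and 1.67 ± 0.62 at Day8. The Day8 libraries of this pair overlapped with those of Control, and those of MCE1 and MCE2 did not. Ccnb1 stood 0.72 ± 0.05 above Ccnb2 at Day4, 0.66 ± 0.09 at Day6 and 0.78 ± 0.19 at Day8, under the 1.54 ± 0.14 of Control in every library. Aurkb was above Aurka at MCE1 (0.20 ± 0.03) and below it at MCE2 (-0.66 ± 0.15) and in Control (-0.16 ± 0.07). These differences were not tested.

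The step from MCE2 to Day4 asks what changed between clonal expansion and the differentiating cells. Of the 52 genes, 48 fell and 0 rose (background 22.0% called lower), with a median log2 fold change of -1.21 against 0.07 for all genes. The largest fall was that of Top2a, with 42.5, 40.8 and 40.8 TPM at Day4 against 221, 256 and 252 TPM at MCE2 (-2.52, SE 0.06, adjusted p = 1.35e-13). Next came Aurkb (-1.95 ± 0.08), Bub1b (-1.91 ± 0.07) and Ube2c (-1.80 ± 0.09). Smc4 and Cenpk were not called (-0.24 ± 0.15 and 0.00 ± 0.23), nor were Ect2 (-0.74 ± 0.31) and Kif20a. Ect2 was called lower under median-ratio scaling (-0.79), quantile normalization (-0.91) and without MCE2 replicate 1 (-0.91). Smc4 had 38.4, 35.5 and 30.7 TPM at Day4, against 41.3, 42.3 and 39.8 TPM at MCE2, with no overlap between the groups. Nuf2 (-0.39 without MCE2 replicate 2, -0.48 without Day4 replicate 3) and Pttg1 (-0.94 without MCE2 replicate 1, -0.79 without MCE2 replicate 3, -0.81 without Day4 replicate 1) were called only with those libraries, and Prc1 was lost without Day4 replicate 1 (-0.88).

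Between Day4 and Day6 the direction turned: 23 of 52 genes rose and 0 fell, with 29 not called, where 14.5% of all genes were called higher and 11.2% lower. The median log2 fold change was 0.34 against 0.02 for all genes. A fit on the 6 libraries alone called 14 genes, all higher. Among all genes that fit called 1434 higher and 1093 lower, against 1835 and 1422 in the fit over 18 libraries. Leaving out each library in turn called 17 to 20 mitosis genes, and among all genes 1474 to 1626 higher and 1083 to 1428 lower. The rise was small beside the earlier fall. Mki67 had 14.3, 17.6 and 13.6 TPM at Day6, against 9.22, 7.56 and 9.91 TPM at Day4 (0.70, SE 0.14, adjusted p = 0.00132). Anln had 19.5, 20.2 and 18.6 TPM at Day6, against 10.9, 12.3 and 12.0 TPM at Day4 (0.68, SE 0.09, adjusted p = 3.22e-05). In both genes every Day6 library was above every Day4 library. The kinetochore genes Spc24 (0.57 ± 0.17), Cenpe (0.48 ± 0.12), Cenpf (0.43 ± 0.13), Ndc80 (0.39 ± 0.12) and Cenpa (0.39 ± 0.09) were called, as were Ccnb2 (0.39 ± 0.08), Ccnb1 (0.32 ± 0.08), Ccna2 (0.31 ± 0.07) and Foxm1 (0.23 ± 0.07) of mitotic entry. Others that rose were Bub1b (0.42 ± 0.07), Ube2c (0.41 ± 0.09), Aurkb (0.37 ± 0.08) and Kif22 (0.37 ± 0.07). Of these, Spc24, Cenpf, Ndc80 and Foxm1 each lost the call without some single libraries: Spc24 without Day4 replicates 1 or 3 or Day6 replicates 1 or 3 (0.40 to 0.57), and Foxm1 without Day4 replicates 2 or 3 or Day6 replicates 1 or 2 (0.18 to 0.25). Cdk1 (0.12 ± 0.06), Plk1 (0.14 ± 0.05), Top2a (-0.03 ± 0.06) and Bub3 (-0.13 ± 0.06) were not called.

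From Day6 to Day8, 36 of 52 genes fell and 0 rose (background 11.6% called lower and 10.1% higher), with a median log2 fold change of -0.57 against 0.00 for all genes. Birc5 had 10.8, 11.0 and 21.4 TPM at Day8, against 36.6, 35.5 and 38.4 TPM at Day6 (-1.36, SE 0.18, adjusted p = 9.38e-05), with replicate 3 of Day8 well above the other 2 but still under every Day6 library. Ccna2 had 13.6, 12.8 and 12.7 TPM at Day8, against 28.2, 27.0 and 29.1 TPM at Day6 (-1.06, SE 0.07, adjusted p = 1.41e-07). Mki67 (-1.14 ± 0.14), Racgap1 (-1.13 ± 0.17), Nusap1 (-1.09 ± 0.16), Hmmr (-1.02 ± 0.11) and Plk1 (-0.97 ± 0.05) fell as well. Cdc25b (0.27 ± 0.21), Cenpa (0.09 ± 0.09), Bub1 (0.05 ± 0.19) and Anln (-0.13 ± 0.09) were among the 16 genes not called.

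**Figure D4:**
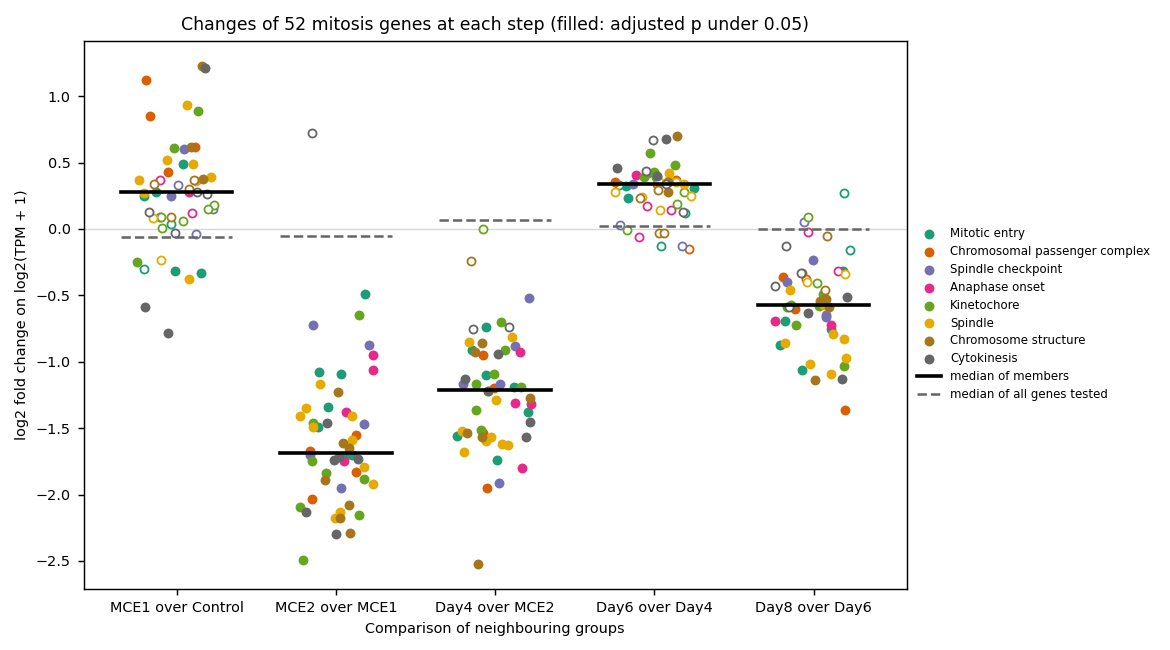
Log2 fold changes of the 52 tested mitosis genes on log2(TPM + 1) at each step between neighbouring groups, 1 point per gene coloured by role (filled where the adjusted p was under 0.05), with the median of the 52 genes (solid line) and of all genes tested (dashed line). The median of the mitosis genes was 0.27, -1.68, -1.21, 0.34 and -0.57 in turn, while that of all genes lay between -0.06 and 0.07.

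A further 94 genes of mitosis outside these 53, from a list of 98 of which 94 were found by name, all passed the filter and were tested in the same fit. At MCE1 over Control 28 of them rose and 6 fell, where 22.0% of all genes tested were called higher and 29.4% lower, with a median log2 fold change of 0.18. Cenpm, a kinetochore protein, was the highest, with 33.9 ± 6.55 TPM at MCE1 and 13.6 ± 2.87 TPM in Control (SD, n = 3 each), a log2 fold change of 1.26 ± 0.20. Nsl1, of the MIS12 complex that anchors NDC80, rose by 1.19 ± 0.12 and the mitotic kinase Pbk by 1.15 ± 0.14. The lowest of those called were Cenpt, of the inner kinetochore (-0.57 ± 0.12), and the anaphase-promoting complex subunits Anapc2 (-0.49 ± 0.06) and Anapc4 (-0.39 ± 0.06). At Day8 over Control 77 of the 94 fell and 4 rose (background 39.7% called lower and 31.7% higher), with a median of -1.46 against -2.88 for the 52 genes. Aspm, a spindle pole protein, had 2.20 ± 0.105 TPM at Day8 and 38.7 ± 1.62 TPM in Control (SD, n = 3 each), a log2 fold change of -3.63 ± 0.12. The 15 listed genes of the anaphase-promoting complex and its regulators had a median of -0.41 at Day8 over Control, with 8 lower and 2 higher against the same background. Anapc13 rose by 0.49 ± 0.09. Cdc20, an activator of the complex, and Ube2c, an enzyme that brings ubiquitin to it, stood at -2.73 ± 0.07 and -3.19 ± 0.09 in the same comparison. At Day6 over Day4 16 of the 94 rose and 5 fell, the first close to the 14.5% of all genes called higher and the second under the 11.2% called lower. At Day8 over Day6 33 fell and 1 rose, where 11.6% of all genes were called lower and 10.1% higher.

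Kif20a, a motor of the central spindle, could not be read as the other genes were. It had 7.73 TPM in MCE2 replicate 3, 3.22 TPM in Day6 replicate 2 and 2.74 TPM in Day8 replicate 2, and 0 to 0.834 TPM in the other 15 libraries, and it was called in no comparison. It passed the filter only through those 3 libraries. In the deposited mm9 positions 18.4% of its span lies inside Cdc23, which had 31.2 to 65.9 TPM, and 2.77% inside Brd8. In all, 11 of the 53 genes overlap another listed gene, among them Ccna2 with Exosc9 over 10.6% of its span and Ncapg with Lcorl over 11.0%. No strand setting is given in the sources used here, so reads from such pairs cannot be told apart. Of the 50-base stretches of the genes' GENCODE vM21 transcripts, 12.9% of those of Ccnb1 are shared with transcripts of its pseudogene Ccnb1-ps and 5.4% of those of Kif20a with Cdc23, the only 2 genes over 5%. The values of these genes are uncertain for this reason, and by how much was not tested. For Pttg1, Cenpk and Ect2, the recorded end of the gene differed between libraries, and all 3 had wide spreads between replicates, such as 8.89, 21.5 and 25.5 TPM for Pttg1 at Day6.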

How the data were processed

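The authors deposited a table of TPM for each library, with 1 line per gene. Per the submitters' processing notes, reads were handled with FastQC, cutadapt, HISAT2 and StringTie on the mm9 build; versions, gene annotation, strand setting and filters are not given in the sources used here. Depth is therefore unknown, and the spread between replicates sets the precision. Listed TPM summed to 869497 to 880273 per library. All tables list the same 25209 names; 12 genes listed at another locus in Control replicate 1 were left out, and values were not rescaled.

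Groups were taken from the sample labels. The 12695 genes that reached 1 TPM in 3 or more libraries were analysed as log2(TPM + 1) with limma 3.58.1 (R 4.3.3; 1 mean per group over 18 libraries, trend and robust options, 12 residual and a median of 3.18 prior degrees of freedom). The 9 comparisons of pairs of groups (each later group with Control, and neighbouring groups) and an F test were 2-sided, with Benjamini-Hochberg adjustment over all genes tested. SEs are those of the fit. The fit was tested on simulated data. The 53 genes, their roles, the list of 98 other mitosis genes and the markers were chosen with earlier results of these data known. Of the other mitosis genes, at most the 3 highest and 3 lowest called per comparison could be named. Alternatives were a pseudocount of 0.1, no filter, a filter of 5 TPM, median-ratio scaling, quantile normalization, a fit on the 6 libraries compared, the replicate number as a block, and leaving out each library. Promoter windows were those of RefSeq in GRCm38.p6, and no coordinates were converted between builds. Other software was pandas 2.3.3, numpy 2.4.6 and matplotlib 3.10.9 under Python 3.11.15.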

Additional observations from a re-analysis of the deposited data

How the results depend on the processing

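Of 6058 values of single mitosis genes under the alternatives (9 comparisons), 5926 kept their side of the threshold, 90 lost the call and 42 gained one. No gene called in the fit over 18 libraries turned round. Of the 5926 values, 41 differed in sign from that fit, all of genes called in neither, among them Bub3 at MCE2 over Control (-0.11, and 0.08 under median-ratio scaling) and Ect2 and Mad2l1 at MCE1 over Control (-0.03 and -0.04, and 0.08 each under median-ratio scaling). Top2a at MCE2 over Control, not called at 0.00, was called higher under median-ratio scaling at 0.20 (adjusted p = 0.00214). The fit on the 6 libraries compared alone called 14 mitosis genes in Day6 over Day4, against 23 in the fit over 18 libraries. Among all genes it called 1434 higher and 1093 lower there, against 1835 and 1422. In Day8 over Day6 it called 24 mitosis genes against 36, and among all genes 553 higher and 583 lower against 1287 and 1474. In MCE1 over Control it called 38 mitosis genes against 29, and among all genes 3130 higher and 4141 lower against 2799 and 3727. The cause was not tested. Leaving out each library in turn gave 26 to 27 called mitosis genes for MCE1 over Control and 47 to 48 for MCE2 over Control. It gave 50 to 51 for MCE2 over MCE1 and 46 to 48 for Day4 over MCE2. For Day6 over Day4 it gave 17 to 20, and for Day8 over Day6 33 to 37. Each of Day4, Day6 and Day8 over Control kept 51, as did the F test. Among all genes these refits called 2492 to 2560 higher and 3100 to 3365 lower in MCE1 over Control, against 2799 and 3727. Called lower were 4400 to 4912 for MCE2 over Control and 2635 to 3140 for MCE2 over MCE1. For Day4 over MCE2 2439 to 2770 were lower, and for Day8 over Day6 1193 to 1531. For Day6 over Day4 1474 to 1626 were higher. Over Control, 4476 to 4816 were lower at Day4, 4505 to 4999 at Day6 and 4572 to 5025 at Day8. With no filter, Kif2c was also tested, and 52 of 53 genes were called lower at Day4 than in Control. Among all genes 4013 were called higher and 5426 lower in that setting. Kif2c stayed under 1 TPM in every library, so its difference lies near 0 TPM and is not read as a fall. Same-numbered libraries did not deviate together (45 correlations, -0.07 to 0.09, and 4 of 18 libraries closest to their own number), so the numbers were not taken as pairs. With the replicate block, 28 mitosis genes were called in MCE1 over Control (22 higher, 6 lower) and 26 in Day6 over Day4. Their counts in the other comparisons were as without it. Among all genes the block gave 2788 higher and 3737 lower in MCE1 over Control, and 1832 and 1390 in Day6 over Day4. Since the depth is unknown, the part of counting error in these spreads is unknown too.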
